A study of Mus musculus with 8 samples.

Results

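The IL-23 and IL-17 axis was followed here through 5 genes, which are 5 of the 21742 genes named in the count tables once the mitochondrial genes are left out. They are Il23a, the p19 subunit of IL-23; Il23r, the receptor chain specific to IL-23; Il17a and Il17f, the paired IL-17 cytokines; and Il17ra, a receptor chain that IL-17A and IL-17F share. They were chosen by name, and their rows were read in all 8 libraries. The measured cells were CD45+ cells, that is leukocytes, from full-thickness back wounds of male C57BL/6J mice. The diabetic mice had received streptozotocin (STZ), a toxin of the insulin-producing beta cells, at 120 mg/kg at 4 weeks of age, and the control wounds came from mice without diabetes. Wounds were taken on days 1, 3, 5 and 7, and each library pooled the cells of 5 mice of 1 group on 1 day. There are therefore 4 diabetic and 4 control libraries and no second library of any group on any day.

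IL-23 is a heterodimer of p19 with the p40 subunit encoded by Il12b, and p40 is shared with IL-12. Myeloid cells release it, and it acts through Il23r paired with Il12rb1 on several kinds of lymphocytes, among them the gamma-delta T cells of skin. Those lymphocytes secrete IL-17A and IL-17F, which act through Il17ra paired with Il17rc, chiefly on epithelial and stromal cells, and induce neutrophil-attracting chemokines and antimicrobial proteins.

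The tables held 19236522 to 33842509 UMIs (unique molecular identifiers, 1 per captured RNA molecule) per library, and 35158 of 38959 barcodes passed the filter on genes and mitochondrial reads. The control library of day 5 stood apart. It lost 28.6% of its barcodes against 1.0% to 10.8% elsewhere, its cells had a median of 8234 UMIs against 2575 to 5219, and 8.14% of its cells were neutrophil-like against 21.0% to 60.0%. Values on day 5 are for that reason given beside those of the other days throughout. Barcodes were deposited as running numbers, so barcodes shared between libraries could not be counted. Cells were clustered without the 5 genes and 42 further listed genes of the pathway, and clusters were named from marker genes. Neutrophil-like cells numbered 13864, conventional dendritic-like cells 2352, mature dendritic-like cells 579, gamma-delta T-like cells 1010 and other T-like cells 1429. Levels are given as UMIs of a gene per 1000000 UMIs of the library or class (CPM). The summed gamma-delta T markers reached 2969 to 5130 CPM in the gamma-delta T-like cells of each library and 3.80 to 45.5 in neutrophil-like cells. The summed neutrophil markers reached 4510 to 19479 in neutrophil-like cells and 207 to 1713 in gamma-delta T-like cells, so neutrophil markers were counted in the T cells as well. Summed macrophage markers reached more, at 949 to 9531 in gamma-delta T-like cells and 391 to 12161 in neutrophil-like cells. The source of these foreign markers was not tested. The other T-like cells also held markers of innate lymphoid cells, summed to 243 to 1232, and of NK cells, summed to 74.7 to 1990.

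The 5 genes lay in 4 places of the genome in GRCm38 (GENCODE vM21). Il17a (chr1:20730905-20734496, plus strand) and Il17f (chr1:20777146-20790617, minus strand) were neighbours, 42650 bases apart. Il23r (chr6:67422932-67491855, minus strand) and Il17ra (chr6:120463247-120487559, plus strand) were far apart on chromosome 6. Il23a (chr10:128296139-128298752, minus strand) was the shortest of the 5, at 2.6 kb against 68.9 kb for Il23r. No other annotated gene overlapped any of them, so a read within one of these genes could not belong to an annotated partner. The 3′ UMI counts are not scaled to length, and levels are therefore compared between libraries and cell classes, never between genes.

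RefSeq promoter entries (GRCm38.p6) were matched for Il17a, Il17f and Il23r and not for Il23a and Il17ra. The 250 bases before the start are shown for these 3 genes, which also shared one pattern across cell classes, given further on. Each is written 5′ to 3′ on the gene's own strand, and capitals mark the letters AGGTCA or, on the opposite strand, TGACCT, which is a half-site read by many nuclear receptors, and the TATA box letters TATAAA, searched on the gene's strand alone. The windows are chr1:20730655-20730904 for Il17a, chr1:20784271-20784520 for Il17f and chr6:67491856-67492105 for Il23r. The RefSeq start of Il17f lies inside the longer GENCODE gene.
Il17a: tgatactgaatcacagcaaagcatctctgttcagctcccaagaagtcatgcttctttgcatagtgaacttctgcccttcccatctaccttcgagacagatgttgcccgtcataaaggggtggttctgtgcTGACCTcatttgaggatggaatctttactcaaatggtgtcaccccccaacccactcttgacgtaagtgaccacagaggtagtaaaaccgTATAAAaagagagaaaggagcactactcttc
Il17f: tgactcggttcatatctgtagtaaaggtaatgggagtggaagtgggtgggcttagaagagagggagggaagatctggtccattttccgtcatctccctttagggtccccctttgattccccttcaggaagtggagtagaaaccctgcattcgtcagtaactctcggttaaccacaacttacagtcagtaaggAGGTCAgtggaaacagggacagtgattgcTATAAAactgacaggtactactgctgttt
Il23r: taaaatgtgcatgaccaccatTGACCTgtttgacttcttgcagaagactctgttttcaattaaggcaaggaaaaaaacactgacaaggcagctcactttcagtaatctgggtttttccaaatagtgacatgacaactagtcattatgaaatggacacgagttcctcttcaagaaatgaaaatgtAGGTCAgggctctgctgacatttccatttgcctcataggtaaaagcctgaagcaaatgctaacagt

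Il17a held 1 nuclear receptor half-site, on the opposite strand 120 to 115 bases before its start, and Il17f held 1, 58 to 53 bases before its start. Il23r held 2, at 229 to 224 bases on the opposite strand and at 66 to 61 bases. Of 32817 mouse promoters of the same length, 14.0% held at least 1 such half-site and 1.36% held 2 or more. The TATA box letters stood 31 to 26 bases before the start of Il17a and 29 to 24 bases before that of Il17f, and 7.60% of promoters held them anywhere in the window. None stood in the Il23r window. The STAT letters TTCNNNGAA, which read the same on both strands, stood in none of the 3 windows and in 7.01% of promoters. No marked motif overlapped another. A match of letters describes the window and does not show that a factor bound it.

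Il17a, Il17f and Il23r lay mostly in one class, Il23a in another, and Il17ra in several. Gamma-delta T-like cells were 2.87% of all cells and carried 77.9% of the 3402 Il17a UMIs, 88.5% of the 3292 Il17f UMIs and 71.0% of the 853 Il23r UMIs. Neutrophil-like cells were 39.4% of all cells and carried 83.9% of the 12518 Il23a UMIs. One cluster of the class, described further on, held 64.1% of all Il23a UMIs, and at a finer clustering resolution of 1.6, where part of such cells stayed unnamed, the neutrophil-like share was 58.3% and the unnamed share 26.2%. The 41146 Il17ra UMIs were spread over the myeloid classes, with 26.5% in monocyte-like, 26.4% in neutrophil-like and 24.4% in macrophage-like cells. Across libraries the gamma-delta T-like share ranged from 45.7% to 88.5% for Il17a, from 72.3% to 97.6% for Il17f and from 53.3% to 93.5% for Il23r, and the neutrophil-like share of Il23a ranged from 17.3% to 91.3%.

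**Figure D1:**
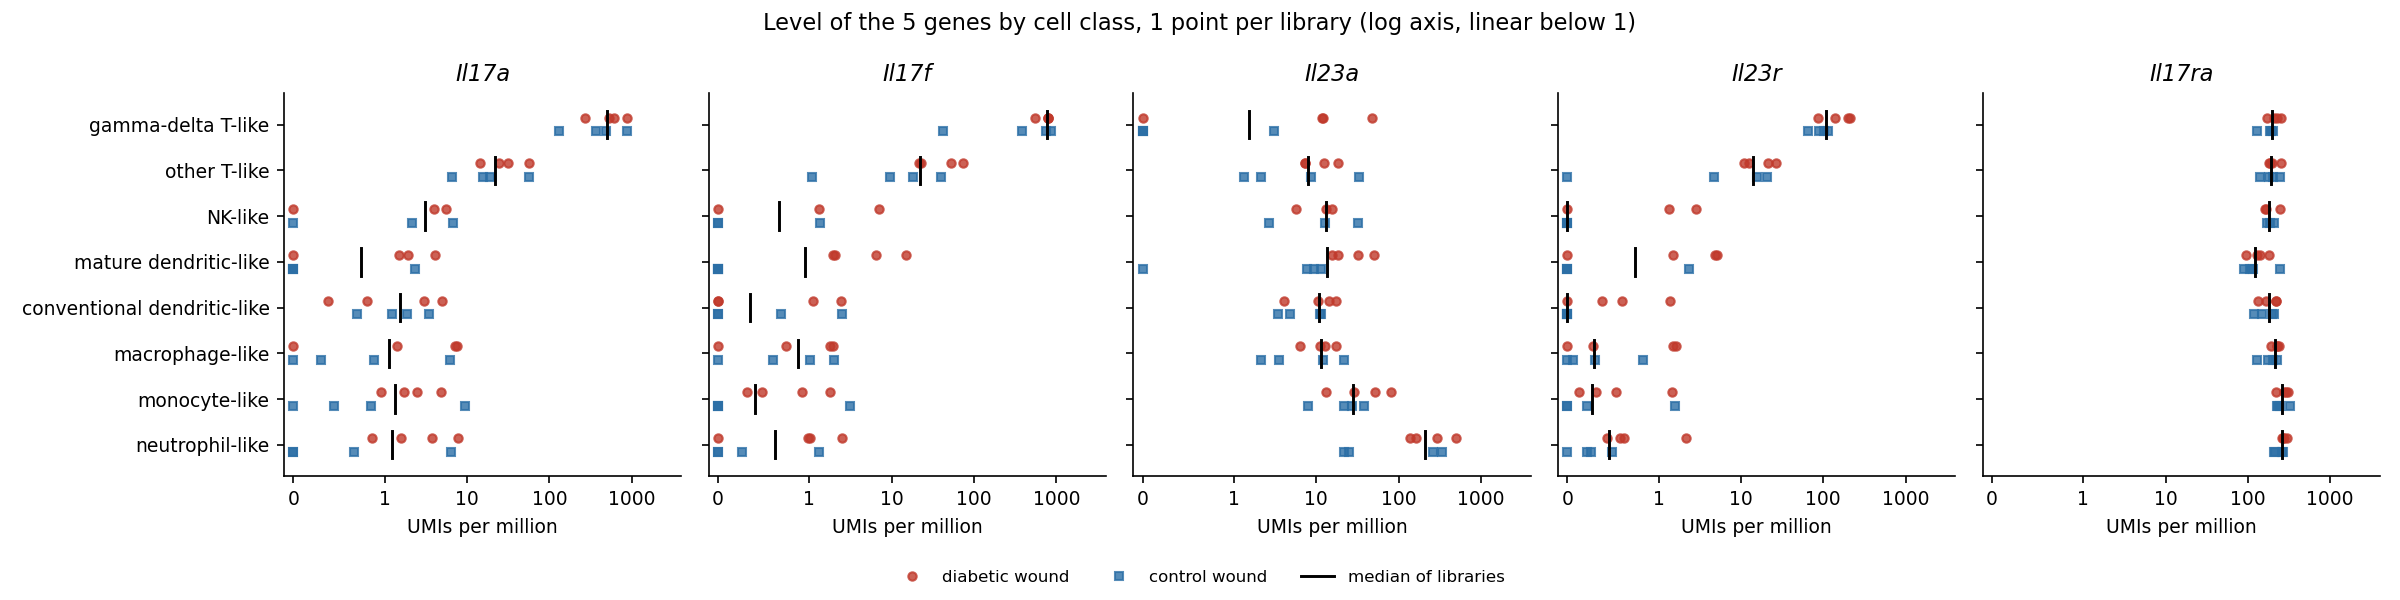
Level of each gene by cell class, in CPM of the class (log axis, linear below 1), with 1 point per library. Il17a, Il17f and Il23r are highest in gamma-delta T-like cells, Il23a in neutrophil-like cells, and Il17ra has median levels between 123 and 262 in the 8 main classes.

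In the order of medians over the 8 main classes, Il17a stood at 506 CPM in gamma-delta T-like cells, 21.6 in other T-like cells, 3.05 in NK-like cells and 0.742 to 1.54 in the dendritic, monocyte-like, neutrophil-like and macrophage-like classes. Il17f stood at 776 in gamma-delta T-like cells and 22.0 in other T-like cells, with no other median above 0.955. Il23r followed the same order, at 108 and 14.1, with no other median above 0.742. Gamma-delta T-like cells exceeded other T-like cells in 8 of 8 libraries for all 3 genes. The mean paired log2 difference, on the log2(value + 10) scale, was 3.74 ± 0.62 (SD, n = 8) for Il17a, 3.91 ± 1.05 for Il17f and 2.51 ± 0.60 for Il23r. The two-sided exact sign-flip permutation test gave p = 0.0078 in each case, the smallest that 8 libraries allow, and an adjusted p of 0.0684 over the 35 neighbouring pairs compared. No pair of neighbours passed an adjusted p of 0.05, so the order rests on the size of the differences and on the number of libraries that show it. Below other T-like cells the neighbours in these 3 orders did not differ beyond their spread, apart from other T-like above NK-like cells for Il17a in 6 of 6 libraries, other T-like above mature dendritic-like cells for Il17f in 8 of 8 libraries, and the same pair for Il23r in 7 of 8.

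Il23a had a median of 212 CPM in neutrophil-like cells, 27.9 in monocyte-like cells, 13.4 in mature dendritic-like cells and 11.5 in macrophage-like cells, 10.7 in conventional dendritic-like cells, 7.96 in other T-like cells and 1.51 in gamma-delta T-like cells. Neutrophil-like cells exceeded monocyte-like cells in 7 of 8 libraries, by 2.04 ± 1.41 on the log2 scale (SD, n = 8, exact p = 0.0156, adjusted p = 0.0781). The exception was the control library of day 5, with 24.7 in neutrophil-like and 37.5 in monocyte-like cells, where 47 of the 49 UMIs came from 5 cells. Il17ra medians ran from 262 in neutrophil-like and 259 in monocyte-like cells, through 214 in macrophage-like, 195 in gamma-delta T-like, 192 in other T-like and 181 in conventional dendritic-like cells, to 123 in mature dendritic-like cells. Monocyte-like cells exceeded macrophage-like cells in 7 of 8 libraries by 0.38 ± 0.26, whereas neutrophil-like and monocyte-like cells differed by -0.04 ± 0.16, less than the spread between libraries.

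Depth per cell differed between classes, so shares of cells with a UMI were also taken after thinning each cell to 1000 UMIs and leaving out shallower cells, which were 719 of 13864 neutrophil-like, 38 of 1010 gamma-delta T-like and 99 of 1429 other T-like cells. Il17a was then found in 27.6% of gamma-delta T-like cells (95% exact interval 24.8% to 30.5%), 2.86% of other T-like cells and 0.236% of neutrophil-like cells, taken here as the class that should lack it. The unthinned shares were 41.3%, 6.93% and 0.765%, at median depths of 3645, 4228 and 2482 UMIs. Il17f was found in 22.5%, 1.73% and 0.0380% of the thinned cells and Il23r in 11.0%, 1.58% and 0.0837%. Il23a was found in 11.0% of thinned neutrophil-like cells (10.4% to 11.5%), against 0.720% of gamma-delta T-like and 0.677% of other T-like cells, and in 2.23% of monocyte-like and 2.13% of mature dendritic-like cells. The share in other T-like cells exceeded that in neutrophil-like cells for Il17a, Il17f and Il23r, with intervals that did not overlap. All intervals cover counting error only.

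IL-23 is described first. Over all cells, Il23a stood at 57.3, 99.5, 163 and 40.1 CPM in the diabetic libraries of days 1, 3, 5 and 7. In the control libraries it stood at 149, 73.2, 5.10 and 5.98. The highest level came on day 1 in the control wounds and on day 5 in the diabetic wounds, and the ranges of the groups overlapped. The ratio of diabetic to control was 0.385 on day 1 (95% Poisson interval 0.359 to 0.414), 1.36 on day 3 (1.27 to 1.45), 32.0 on day 5 (27.2 to 38.0) and 6.71 on day 7 (5.74 to 7.88). These intervals compare pairs of libraries and leave out the variation between wounds. In sums over all cells, fewer cells of a class and less RNA per cell cannot be told apart.

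The receptor chain Il23r stood at 1.63, 3.36, 13.7 and 9.34 CPM in the diabetic libraries and at 1.44, 1.53, 1.02 and 4.76 in the control libraries, with ratios of 1.13, 2.20 (1.44 to 3.44), 13.4 (9.22 to 20.3) and 1.96 (1.58 to 2.43). It was higher in the diabetic library on every day, although the interval of day 1 included 1. Its levels rest on few UMIs, 27 in the library with the fewest.

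Il17a stood at 4.46, 12.5, 35.8 and 35.6 CPM in the diabetic libraries and at 5.90, 6.85, 2.38 and 35.2 in the control libraries. It was at a like level on days 5 and 7 in the diabetic wounds, and the control library reached that level on day 7 alone. Il17f stood at 8.35, 18.5, 43.8 and 25.2 in the diabetic libraries and at 9.04, 0.887, 4.42 and 26.8 in the control libraries. The Il17a ratios were 0.757 (0.564 to 1.01), 1.83 (1.49 to 2.25), 15.0 (11.8 to 19.5) and 1.01 (0.922 to 1.11), and the Il17f ratios 0.924 (0.740 to 1.15), 20.8 (13.0 to 35.5), 9.91 (8.24 to 12.0) and 0.940 (0.844 to 1.05). The Il17f ratio of day 3 was 52.1 with the highest 5% of doublet scores removed. Both genes were thus nearly level between groups on days 1 and 7 and higher in the diabetic library on days 3 and 5. Il17ra moved least, with 284, 260, 206 and 219 in the diabetic and 218, 246, 159 and 197 in the control libraries, and ratios of 1.31, 1.06, 1.29 and 1.11.

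**Figure D2:**
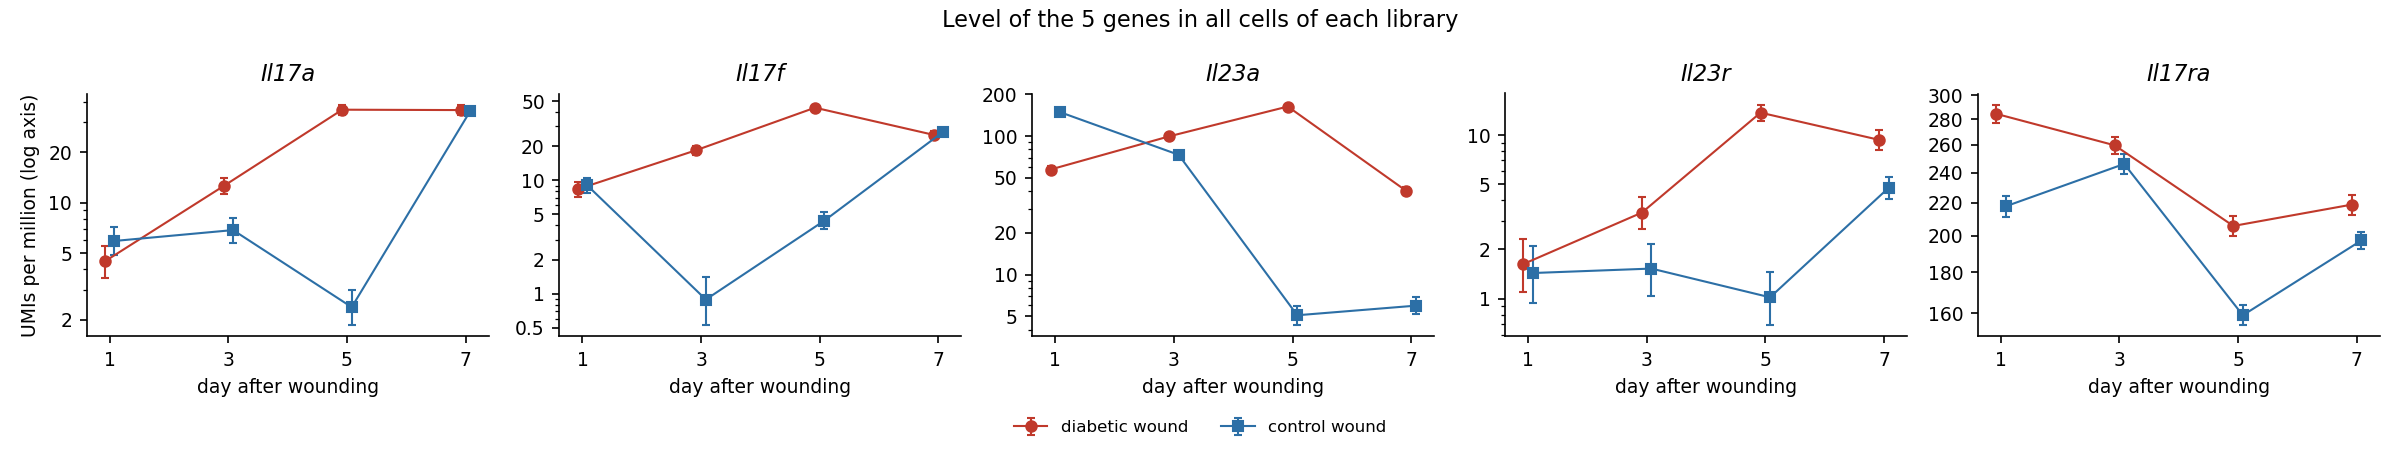
Level of the 5 genes over all cells of each library, in CPM (log axis), by day after wounding, for diabetic and control wounds; bars are 95% Poisson intervals. On day 5 Il23a is at 163 against 5.10, on day 3 Il17f is at 18.5 against 0.887, and Il17a and Il17f lie close together on day 7.

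Counted past 2-fold, 1 of the 5 genes was lower in the diabetic library on day 1 (Il23a), beside 2.19% of all genes, and none was higher, beside 3.64%. On day 3, 2 were higher (Il17f and Il23r), beside 4.38% of genes, and none was lower, beside 5.54%. On day 5, 4 were higher, all but Il17ra, beside 12.2% of genes, and none was lower, beside 18.0%. On day 7, 1 was higher (Il23a), beside 6.67%, and none was lower, beside 4.86%. Day 5 was also the day on which most genes of the tables lay apart, and its control library is the one named above.

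A test of group with day as a block used the 4 days as its replicates. edgeR's quasi-likelihood test called none of the 5 genes and 0.0% of the 12905 genes tested over all cells in either direction, although 1458 genes had an unadjusted p under 0.05, and DESeq2 called 51 higher and 33 lower, none of them among the 5. The log2 differences, diabetic over control, were 1.00 ± 0.76 (SE) for Il17a, 1.78 ± 0.94 for Il17f, 1.67 ± 1.16 for Il23a, 1.53 ± 0.63 for Il23r and 0.30 ± 0.13 for Il17ra. Their edgeR adjusted p-values were 0.577, 0.477, 0.552, 0.442 and 0.449. With a library left out the Il23a difference ran from 0.54, without the diabetic library of day 5, to 2.76, without either library of day 1, and with day not in the model it was 0.47. Without day 5 in both groups the differences were 0.18 for Il17a, 0.98 for Il17f, 0.55 for Il23a, 0.80 for Il23r and 0.21 for Il17ra, all still positive. The test of a different slope over days called 0 of 12905 genes in edgeR, 217 of them with an unadjusted p under 0.05, and the difference of slopes for Il23a was 0.89 ± 0.29 per day (adjusted p = 1.00).

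A slope over days, fitted to both groups together, fell for Il17ra over all cells, by 0.14 ± 0.03 per day on the log2 scale (edgeR adjusted p = 0.0414), beside 6.88% of 13332 genes that fell and 3.46% that rose. The call depended on scaling. TMM scaling moved the median slope of all genes by -0.077 per day. Scaled to total UMIs alone, the Il17ra slope was -0.06 and did not pass. That of Il17a, 0.37 ± 0.13 with TMM (adjusted p = 0.0931), became 0.45 and passed, beside 1900 of all genes that rose and 483 that fell. Over the alternatives the adjusted p of Il17ra ranged from 0.003875 to 0.1806 and that of Il17a from 0.007846 to 0.4571. Leaving out any 1 library other than the control library of day 5 ended the Il17ra call, with slopes of -0.17 to -0.13. The slopes of Il17f (0.22 ± 0.16), Il23r (0.29 ± 0.12) and Il23a (-0.61 ± 0.23) had adjusted p-values of 0.361, 0.134 and 0.109.

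Il23a was next followed within neutrophil-like cells, short-lived phagocytes that are among the first leukocytes in a wound. In the diabetic libraries of days 1, 3, 5 and 7 these cells held 137, 294, 497 and 161 CPM of Il23a, from 951, 2045, 3045 and 514 UMIs. In the control libraries they held 339, 263, 24.7 and 21.5, from 2556, 1238, 26 and 133 UMIs. The control level was highest on day 1 and the diabetic level on day 5, as over all cells. The ratios were 0.403 (0.374 to 0.434), 1.12 (1.04 to 1.20), 20.2 (13.7 to 30.9) and 7.48 (6.17 to 9.12). The share of neutrophil-like cells differed too, at 51.4%, 49.3%, 46.0% and 21.0% of diabetic cells and 60.0%, 41.4%, 8.14% and 24.7% of control cells. On day 5 the diabetic share of cells was 5.64 times the control share, and the Il23a level within the class was 20.2 times the control level. After thinning, the share of neutrophil-like cells with an Il23a UMI was 6.92%, 11.3%, 16.4% and 11.1% in the diabetic libraries. It was 16.3%, 9.25%, 3.20% and 2.62% in the control libraries. Within each group, though not across groups, the shares were in the same order as the levels.

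edgeR called no gene between groups among 9738 tested in neutrophil-like cells, 0.0% in either direction, with 917 at an unadjusted p under 0.05, and DESeq2 called 38 higher and 6 lower, none of the 5 genes among them. The Il23a difference was 1.49 ± 0.89 on the log2 scale (edgeR adjusted p = 0.615), and 0.42 without day 5. With no filter on low counts it was 1.50 ± 0.31 and passed with an adjusted p of 0.0004751. Over the alternatives the adjusted p ranged from that value to 0.9997. The share of all genes that passed without the filter is not given here, so nothing is read from that call. The slope over days was -0.57 ± 0.20 per day (adjusted p = 0.0373) beside 21.3% of 10303 genes that fell and 23.4% that rose, and scaled to total UMIs alone it was -0.39 and did not pass. Il17ra in the same cells stood at 296, 278, 264 and 258 in the diabetic and 207, 271, 259 and 215 in the control libraries. Its slope was -0.18 ± 0.04 with TMM (adjusted p = 0.0054) and -0.02 without it, where it did not pass, and TMM moved the median slope of all genes in these cells by -0.162. The Il23a call was lost without the diabetic library of day 7 or the control library of day 1, 5 or 7, with slopes of -0.83 to -0.32 over the 8 libraries left out in turn, and the Il17ra call without the control library of day 7, where its slope was -0.16.

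**Figure D3:**
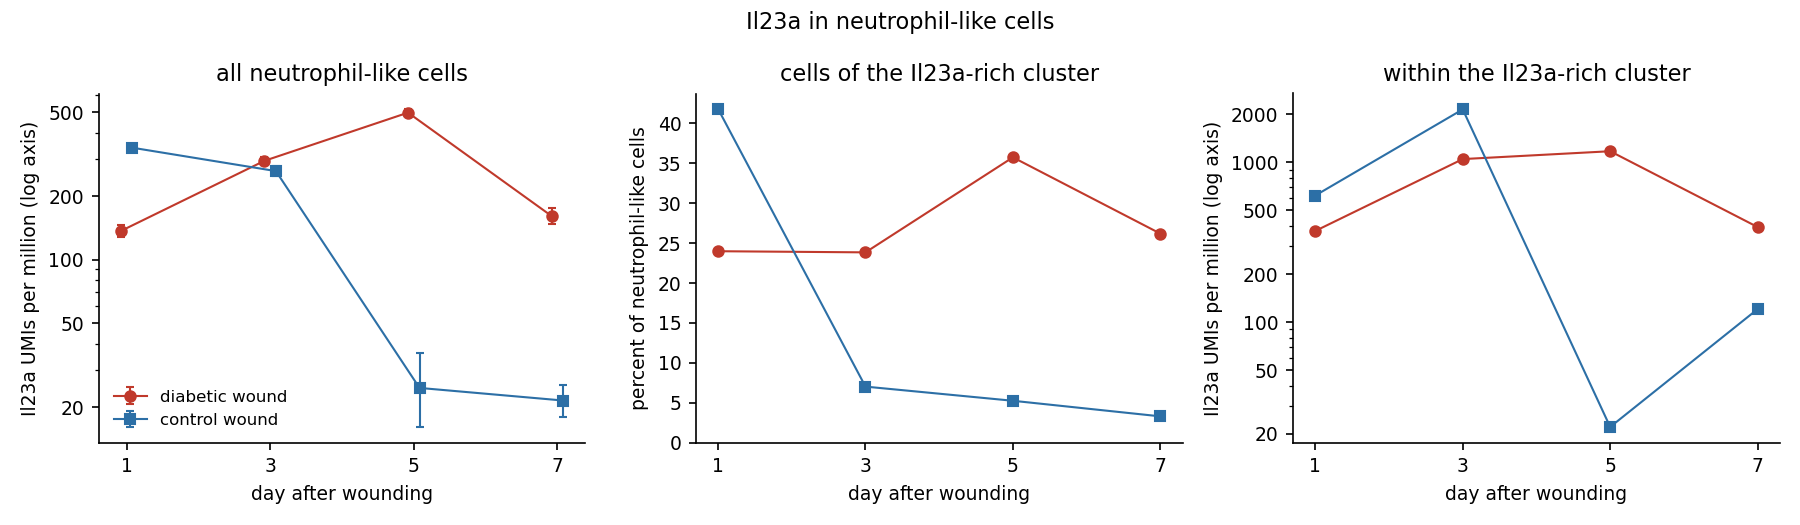
Il23a in neutrophil-like cells by day, as CPM over all of them (log axis), as the percent of them in the cluster led by Il23a, and as CPM within that cluster (log axis). The diabetic level peaks on day 5 at 497, and the control level is 339 on day 1 and 21.5 on day 7.

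Few neutrophil-like cells held most of the Il23a. Of 13864 cells, 2349 had at least 1 UMI, with a median of 2 and a highest value of 115, and the 10% of these cells with the most held 47.5% of the UMIs. One cluster of 3411 neutrophil-like cells, 24.6% of them, carried 76.4% of their Il23a UMIs. Il23a led its genes by fold, followed by Il1a, Tnf and Ccl3, genes of inflammatory cytokines and a chemokine. No neutrophil marker was among its 10 leading genes, although 6 of the 7 were detected, and its neutrophil marker score was 0.60. At a clustering resolution of 1.6 a cluster of 1489 cells led by Il23a, Tnf, Csf1 and Ccl3 stayed unnamed, with a neutrophil score of -0.55, and was not counted in the class, and the Il23a ratios of the class were then 0.434, 1.57, 16 and 4.05. Il23a took no part in the clustering, whereas genes that vary with it did, so no test was made. The cluster made up 24.0%, 23.8%, 35.7% and 26.2% of neutrophil-like cells in the diabetic libraries and 41.8%, 7.04%, 5.26% and 3.31% in the control libraries. Within it Il23a stood at 372, 1049, 1174 and 394 CPM in the diabetic and 620, 2146, 22.1 and 121 in the control libraries. The control values of days 5 and 7 rest on 14 and 38 cells, with 3 and 28 UMIs. On control day 3 the cluster was small, at 140 cells, yet held the highest level of the 8 libraries.

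Dendritic cells, the class best known for IL-23 in skin, held little Il23a. In conventional and mature dendritic-like cells together it stood at 7.20, 21.7, 17.6 and 11.4 CPM in the diabetic libraries, from 10, 71, 77 and 53 UMIs. Of the 71 UMIs on day 3, 26 came from 1 mature dendritic-like cell. The control libraries held 10.6, 10.9, 6.37 and 2.85, from 8, 32, 12 and 7 UMIs. Diabetic levels were higher on days 3, 5 and 7, and the ranges overlapped. edgeR gave a log2 difference of 1.07 ± 0.37 (edgeR adjusted p = 0.663, unadjusted p = 0.0156), with no gene called higher and 0.0216% of 9278 genes called lower, and DESeq2 called 9 higher and 7 lower, with no adjusted p for Il23a. No slope over days passed for Il23a or Il17ra there, beside 0.219% of genes that rose and 0.0416% that fell. Monocyte-like cells, the second source, stood at 13.3, 28.6, 51.0 and 79.7 in the diabetic and 22.0, 27.1, 37.5 and 7.81 in the control libraries, the last from 5 UMIs.

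Il12b, which encodes the p40 partner, came mostly from dendritic-like cells. Mature dendritic-like cells were 1.65% of cells and carried 74.3% of the 1941 Il12b UMIs, and conventional dendritic-like cells carried 17.2%. The mature share ranged from 32.9% to 92.4% by library, and on control day 1 neutrophil-like cells carried 58.8%, as 30 UMIs in 2 cells. Over all cells Il12b stood at 8.61, 7.17, 8.95 and 31.8 CPM in the diabetic and 2.71, 7.74, 11.2 and 5.70 in the control libraries. On diabetic day 1 a total of 152 of the 153 dendritic-like Il12b UMIs lay in 5 cells. Among 579 mature dendritic-like cells 131 had an Il12b UMI, 42 had an Il23a UMI and 9 had both. Among 13864 neutrophil-like cells 18 had an Il12b UMI and 5 had both. Cells that held RNA of both subunits of IL-23 were thus rare at this depth, and RNA of 1 subunit in a cell does not show which protein it released.

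Within gamma-delta T-like cells, Il17a stood at 268, 525, 605 and 888 CPM in the diabetic libraries of days 1, 3, 5 and 7, from 65, 263, 669 and 502 UMIs. In the control libraries it stood at 488, 372, 130 and 885, from 93, 123, 32 and 902 UMIs. The diabetic level was highest on day 7, and the control level was lowest on day 5. The ratios were 0.549 (0.394 to 0.762), 1.41 (1.13 to 1.76), 4.65 (3.26 to 6.86) and 1.00 (0.898 to 1.12).

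Il17f in the same cells stood at 556, 800, 795 and 801 in the diabetic libraries, from 135, 401, 879 and 453 UMIs. The control libraries held 870, 42.4, 382 and 757, from 166, 14, 94 and 772 UMIs. The diabetic level lay between 795 and 801 from day 3 on, while the control level of day 3 rested on 14 UMIs in 5 of 86 cells. The ratios were 0.639 (0.505 to 0.806), 18.9 (11.1 to 34.8), 2.08 (1.68 to 2.60) and 1.06 (0.945 to 1.19). The day 3 ratio was 79.4 with the highest 5% of doublet scores removed, and the day 1 ratio 0.185 with a gate on Trdc and Trac, which also put that of Il17a at 0.229. Il23r stood at 86.5, 138, 210 and 202 in the diabetic and 115, 87.8, 65.1 and 101 in the control libraries, with ratios of 0.750, 1.57 (1.00 to 2.51), 3.23 (1.94 to 5.74) and 2.0 (1.52 to 2.63), and the day 1 ratio was 0.301 with that gate. Il17ra stood at 255, 207, 169 and 225 in the diabetic and 199, 191, 130 and 184 in the control libraries.

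**Figure D4:**
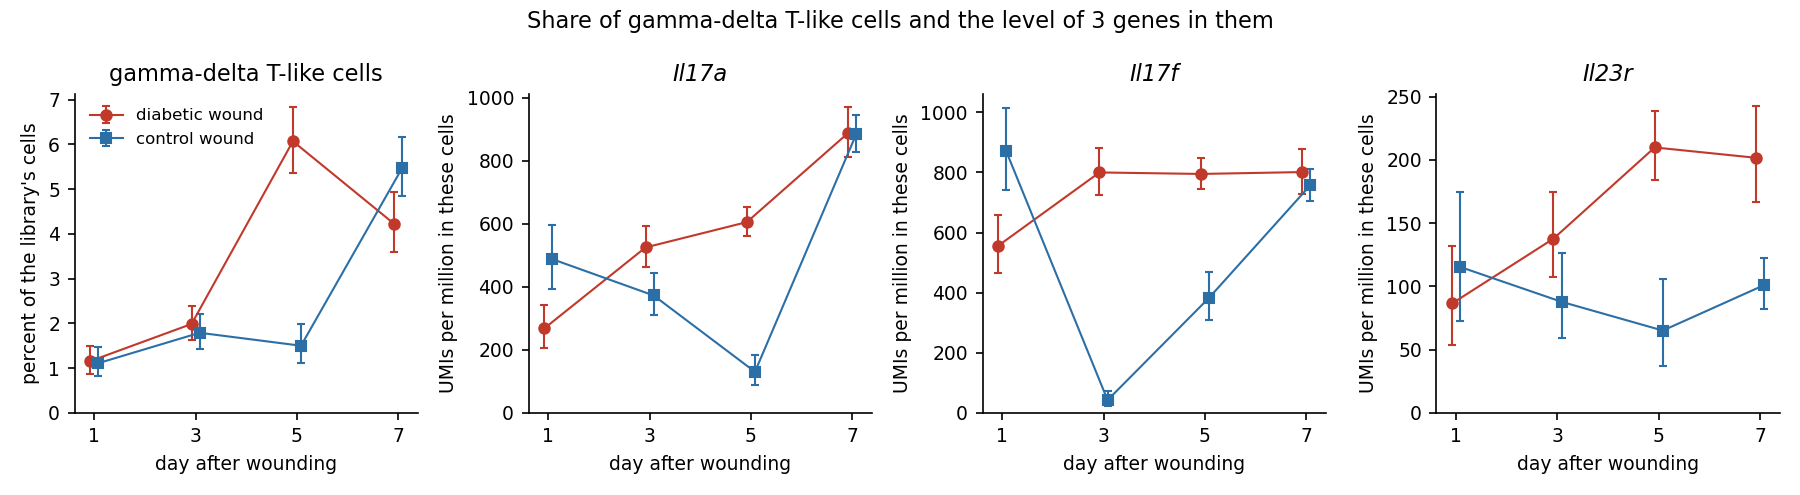
Share of gamma-delta T-like cells among all cells of each library, and CPM of Il17a, Il17f and Il23r within them, by day after wounding; bars are 95% binomial and Poisson intervals. On day 5 both the share (6.07% against 1.50%) and the Il17a level (605 against 130) are higher in diabetic wounds.

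The number of these cells differed between libraries as well. Gamma-delta T-like cells numbered 55, 108, 254 and 154 in the diabetic libraries, which is 1.16%, 1.99%, 6.07% and 4.22% of cells. The control libraries held 49, 86, 49 and 255, which is 1.11%, 1.79%, 1.50% and 5.48%. The share did not follow the levels on every day, since from day 1 to day 3 the control share was higher while Il17a and Il17f within the cells were lower, and from day 5 to day 7 the diabetic share was lower while Il17a within the cells was higher. On day 5 the diabetic share was 4.05 times the control share, and the Il17a level within the cells was 4.65 times the control level, beside the ratio of 15.0 over all cells. As a share of UMIs, on which a level over all cells depends, these cells were at 6.17 times control on day 5. On day 7 the share was 0.771 times that of control, and the levels of Il17a and Il17f were alike. The control library of day 5 had 49 such cells, so its levels rest on few cells, and the part of its lost barcodes in these shares was not tested.

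edgeR called no gene between groups in gamma-delta T-like cells, 0.0% of 5414 in either direction, with 164 at an unadjusted p under 0.05, and DESeq2 also called 0. The log2 differences were 0.39 ± 0.42 for Il17a, 0.91 ± 0.64 for Il17f, 0.74 ± 0.33 for Il23r and 0.25 ± 0.20 for Il17ra (edgeR adjusted p = 0.998 for each). Without day 5 that of Il17a turned to -0.12, so its direction rests on day 5. No slope of the 4 genes tested passed, beside 0.0343% of 5837 genes that rose and 0.137% that fell, and the Il17a slope was 0.18 ± 0.09 per day (adjusted p = 0.689).

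Single cells showed how the paired cytokines went together. Among the 1010 gamma-delta T-like cells, 228 had UMIs of both Il17a and Il17f, 189 of Il17a alone and 93 of Il17f alone. Of the Il17f-positive cells 71.0% also held Il17a, and of the Il17a-positive cells 54.7% also held Il17f. In the diabetic libraries the cells with both numbered 8, 28, 57 and 36, those with Il17a alone 5, 14, 52 and 35, and those with Il17f alone 6, 9, 31 and 14. The control libraries held 11, 3, 6 and 79 with both, 9, 17, 4 and 53 with Il17a alone, and 4, 2, 6 and 21 with Il17f alone. On control day 3 the cells with Il17a alone outnumbered those with both by 17 to 3, the opposite of diabetic day 3. Il23r was found in 39.6% of Il17a-positive and in 22.6% of Il17a-negative cells over all libraries together. The first share was the higher in all 8 libraries, and the gap varied in both groups. In the control libraries it ran from 27.3% against 25.2% on day 7 and 20% against 18.2% on day 3 to 50% against 3.45% on day 1, where 10 of 20 Il17a-positive cells held Il23r. In the diabetic libraries it ran from 30.8% against 16.7% on day 1 to 42.9% against 19.7% on day 3. These shares depend on depth, since a cell with more UMIs in all is more likely to show both genes.

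**Figure D5:**
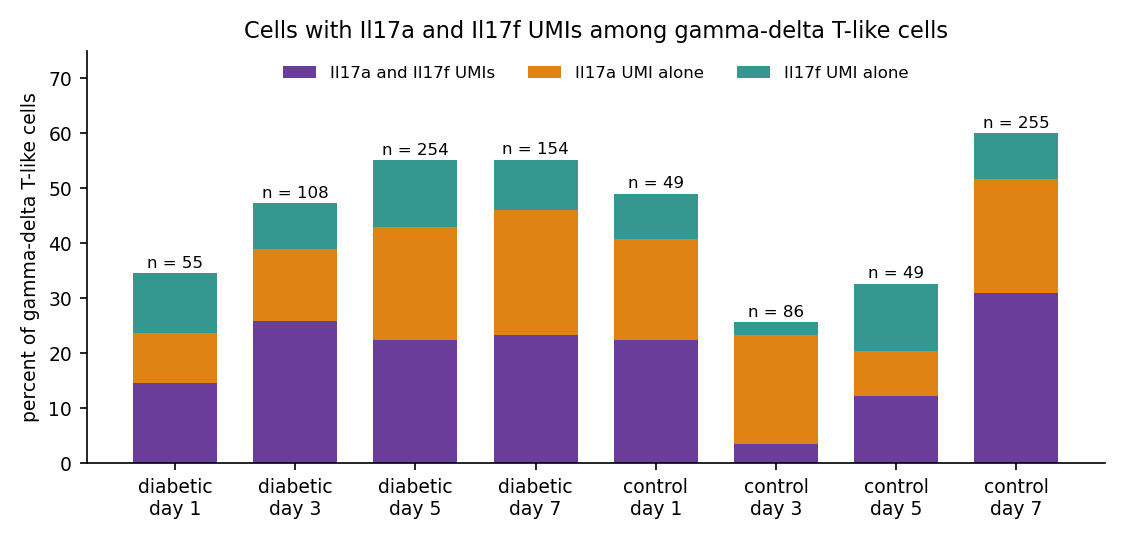
Percent of gamma-delta T-like cells of each library with UMIs of both Il17a and Il17f, of Il17a alone and of Il17f alone, not thinned. The control library of day 3 has 17 cells with Il17a alone and 3 with both, out of 86, whereas the diabetic library of day 3 has 28 with both, out of 108.

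The cytokine UMIs were concentrated in some cells. A positive gamma-delta T-like cell had a median of 3 Il17a UMIs and at most 62, and a median of 5 Il17f UMIs and at most 86. The 10% of positive cells with the most held 41.8% of the Il17a and 40.8% of the Il17f UMIs. Il23r was more even, with a median of 2, a highest value of 13 and 27.1% in the top 10%. Split by T cell receptor RNA, 521 cells of the class had Trdc, the delta constant chain, without Trac, the alpha chain, and held 677 CPM of Il17a, with Il17a in 44.7% of cells. A further 136 cells had Trac without Trdc and held 215, with Il17a in 24.3%. Trac UMIs were also found in 13.8% of conventional and 14.9% of mature dendritic-like cells and 3.78% of neutrophil-like cells, which should lack it, and Trdc in 72.2% of the class, so no T cell type was read from these splits. The Il23r levels were 148 in the cells with Trdc alone and 172 in those with Trac alone, so Il23r did not follow the order of Il17a.

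Other T-like cells, which include alpha-beta T cells, carried 8.67% of Il17a, 5.86% of Il17f and 16.1% of Il23r UMIs. Il17a stood at 14.5, 31.0, 24.1 and 56.8 CPM in the diabetic and 19.0, 6.49, 15.7 and 57.3 in the control libraries, from 4 to 150 UMIs. The highest level came on day 7 in both groups. Il17f stood at 72.6, 52.6, 22.4 and 21.6 in the diabetic and 9.52, 1.08, 18.3 and 39.4 in the control libraries. These rest on 20, 17, 27 and 57 UMIs in the diabetic and on 2, 1, 14 and 55 in the control libraries. The diabetic level of day 1 came from 5 of 57 cells, and the control levels of days 1 and 3 from 1 cell each, so no order was read from them. Il23r stood at 10.9, 12.4, 26.6 and 21.2 in the diabetic and 4.76, 0, 15.7 and 20.8 in the control libraries. edgeR called 0.0% of 7471 genes between groups in either direction, with 314 at an unadjusted p under 0.05, and DESeq2 called 1 higher, which was none of the 5 genes. The Il17a slope was 0.37 ± 0.10 per day (adjusted p = 0.207), beside 0.127% of 7905 genes that rose and 0.0886% that fell. The share of other T-like cells was 13.9% on diabetic day 7 and 5.18% on control day 7.

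Outside the T cells, macrophage-like cells held 190 of the 3402 Il17a UMIs, neutrophil-like cells 109 and monocyte-like cells 62, beside 295 in other T-like cells. The macrophage-like share reached 20% in 1 library. In neutrophil-like cells Il17a stood at 0.862, 1.58, 3.75 and 7.82 CPM in the diabetic and 0.663, 0, 0 and 6.30 in the control libraries, from 6, 11, 23 and 25 and from 5, 0, 0 and 39 UMIs. The slope over days passed, at 0.44 ± 0.14 per day (edgeR adjusted p = 0.0229), beside 23.4% of genes that rose, and was lost without either library of day 7 or the diabetic library of day 1, with slopes of 0.29 to 0.59. These levels were highest on day 7 in both groups. Over all cells Il17a stood at 35.8 on diabetic day 5 and 35.6 on diabetic day 7, while the neutrophil-like level was 3.75 and 7.82. Medians in the other main classes apart from T cells were 0.742 to 3.05. On day 7 the diabetic and control levels were 7.19 and 6.13 in macrophage-like, 4.86 and 9.37 in monocyte-like and 4.92 and 3.45 in conventional dendritic-like cells, so levels near the neutrophil-like ones were seen in other classes on that day. At 0.236% of thinned cells the share is that of a class taken to lack IL-17, and the part of free RNA in it was not tested.

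The receptor partners were counted in few UMIs over all cells. Il12rb1, the second chain of the IL-23 receptor, stood at 0.315, 0.573, 1.86 and 2.60 CPM over all diabetic cells and 1.01, 1.43, 1.29 and 1.64 over all control cells. In gamma-delta T-like cells it stood at 0, 3.99, 13.6 and 8.84 in the diabetic and 15.7, 21.2, 8.13 and 15.7 in the control libraries. These rest on 0, 2, 15 and 5 diabetic and 3, 7, 2 and 16 control UMIs, and the 0 is bounded at 12.4 CPM. No difference between groups was read from them. Il17rc, the partner of Il17ra, stood at 0.0525 to 1.30 over diabetic cells and 0.296 to 2.12 over control cells. The gate on CD45+ cells left 50 fibroblast-like cells, a stromal class in which the IL-17 receptor pair is known to act. Il17rc stood at 33.3 CPM in those of control day 7, from 16 UMIs in 22 cells, and at 15.6 in those of diabetic day 7, from 5 UMIs in 7 cells. Of the 16 UMIs, 15 lay in 5 cells. Il17rc was also counted in gamma-delta T-like cells, at 16.7 on control day 7, from 17 UMIs, and 8.84 on diabetic day 7, from 5 UMIs.

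The pathway list held 42 other genes, 41 of them in the tables, of which 35 could be tested over all cells. In edgeR's test of group 0 rose and 0 fell, with a median log2 difference of 0.65 beside 0.02 over all genes tested. In the slope over days 1 rose and 10 fell, beside 3.46% of all genes that rose and 6.88% that fell. Rora, which encodes a transcription factor listed among the factors of IL-17-making lymphocytes, rose by 0.28 per day (edgeR adjusted p = 0.0351). Among inducers and related subunits, Il12a, the IL-12 subunit that pairs with p40, fell by 0.72 per day, Il1b by 0.38 and Il6 by 0.34. Among the targets of IL-17, 5 of 9 tested fell, namely Csf3, the neutrophil growth factor, by 0.45, the chemokine Cxcl2 by 0.36, the iron-binding Lcn2 by 0.61, and the paired antimicrobial S100a8 and S100a9 by 0.56 each. Nfkbiz and Tnfaip3, both induced by IL-17 receptor signalling, fell by 0.31 and 0.25. Without TMM 4 rose and 9 fell, since Tnfaip3 no longer passed, beside 1900 of all genes that rose and 483 that fell. S100a8, S100a9, Lcn2 and Il1b are known as abundant neutrophil transcripts, and neutrophil-like cells were 51.4% and 60.0% of diabetic and control cells on day 1 and 21.0% and 24.7% on day 7. The part of this cell share in the slopes was not tested. Within neutrophil-like cells alone, 2 of 23 list genes tested rose and 12 fell, beside 23.4% of all genes that rose and 21.3% that fell. Among the targets of IL-17 there, 5 of 8 fell, with a median slope of -0.44 per day. Without TMM 5 list genes rose and 9 fell in these cells, beside 5122 of all genes that rose and 560 that fell. In gamma-delta T-like cells edgeR called 0 of 23 list genes in the slope, beside 0.0343% of all genes that rose and 0.137% that fell.

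Il17a, Il17f and Il23r were also the closest to each other across all 11698 genes with at least 200 UMIs, over 71 sums of a class in a library. With Il17a, Pearson's r was 0.98 for Il23r and 0.96 for Actn2, a muscle-type actinin. With Il17f it was 0.96 for Il23r, 0.95 for Il17a and 0.94 for 5830411N06Rik. With Il23r it was 0.98 for Il17a, 0.96 for Actn2 and 0.96 for Il17f. Il23a had looser neighbours, with 0.83 for 9130230L23Rik, 0.83 for Tnfrsf23, a decoy receptor of the TNF family, and 0.81 for AC102815.3. Il17ra was nearest to Tnfsf14 at 0.73, Svil at 0.72 and Ccl4 at 0.70. The 71 sums share libraries and depths, and the first 3 genes sit in 1 class, so these values describe the pattern without a test. With a pseudocount of 1 in place of 10, 10 of these 15 neighbours stayed among the first 3.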

How the data were processed

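Per the study's methods, the authors captured cells with the BD Rhapsody whole-transcriptome system (the series record names another platform), trimmed reads with fastp (0.20.1 in the submitters' processing notes), counted UMIs with UMI-tools after STAR alignment to an Ensembl annotation, and deposited raw UMI counts per gene and cell. The processing notes name mm9, whereas that annotation is of GRCm38; no coordinate here comes from the count tables. A cell was used here if it had more than 200 genes and less than 20% of its UMIs from mitochondrial genes. No column of per-sample values was left unused.

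Counts scaled to 10000 per cell were clustered (scanpy 1.11.5, Leiden) without the 5 genes and the pathway list, and classes were named from marker lists. A doublet caller marked 0.193% of cells. Whether it worked was not tested, and doublets were kept. UMIs were summed per library and class, given per 1000000 non-mitochondrial UMIs (CPM), and tested with edgeR 4.0.16 (quasi-likelihood, TMM, filterByExpr, Benjamini-Hochberg over all genes tested, threshold 0.05) over 4 diabetic and 4 control libraries with day as a block, or with day as a number. Days stand in as replicates, so p-values measure the spread between days. On simulated counts 94% of 200 genes changed by 2 on the log2 scale were recovered in the test of group over all cells and 79% in that of slope, and 94% and 73.5% in gamma-delta T-like cells. For the slope, the change of 2 ran from day 1 to day 7. Counts were drawn around 1 mean per gene at the trended spread, with no other differences between days. These percentages therefore do not give the power for the 5 genes. Daily ratios have exact 95% Poisson intervals, shares exact binomial ones, and a count of 0 is bounded by 3 counts. Genes past 2-fold on a day needed 20 UMIs.

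The 5 genes, the lists and the tests were chosen with earlier results of these data known. Named genes are the 5, the partners Il12b, Il12rb1 and Il17rc, list genes past the threshold over all cells, and for each of the 5 the 3 genes most alike over classes of at least 20 cells. One of these is not reported here. Other Il23a cluster and single-cell values were chosen after the data were seen. Alternatives were DESeq2 1.42.0, other filters, scalings, clusterings and libraries left out. Promoter sequences are from RefSeq, which matched 3 of the 5 genes.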

Additional observations from a re-analysis of the deposited data

Results flagged for a closer look

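Il23a over all cells was lower in the diabetic library on day 1, at 0.385 times control, and higher on day 5, at 32.0 times. In neutrophil-like cells the same gene stood at 0.403 times control on day 1 and 20.2 times on day 5. In gamma-delta T-like cells Il17a stood at 0.549 times control on day 1 and 4.65 times on day 5, and Il17f at 0.639 times on day 1 and 18.9 times on day 3. Each was singled out because 1 pair of libraries moved one way and another pair the opposite way, each with an interval of counting error that did not include 1. The difference between days was not tested, since every group has 1 library a day. The ratios of day 5 share the control library with the fewest neutrophil-like cells (266) and 49 gamma-delta T-like cells, and the day 3 ratio of Il17f rests on 14 control UMIs.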

How the results depend on the processing

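Depth limits the levels in gamma-delta T-like cells, where fewer than 100 UMIs of Il17a stand behind diabetic day 1 and control days 1 and 5, and of Il17f behind control days 3 and 5, and 1 library a group and day leaves the variation between wounds unmeasured. Leaving a library out also leaves its day without a pair, so its partner no longer bears on the group difference.

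The number of the 5 genes called for a slope over all cells was 1, against 0 with no filter on low counts, 3 with DESeq2, 3 with day 5 left out in both groups and 0 to 2 with a library left out. In neutrophil-like cells the group test called 0, against 1 with no filter. The slope there called 3, against 0 to 3 with a library left out. Scaled without TMM it called 1, beside 5122 of all genes that rose and 560 that fell. The slopes in gamma-delta T-like and other T-like cells called 0, against 1 each with no filter, Il17a in both cases. The causes were not tested. Shares of all genes called are not given for fits with no filter, slopes with DESeq2 or fits with libraries left out. The counts from those fits are therefore not read as results about the 5 genes. The Il17a difference in gamma-delta T-like cells reversed to -0.12 with day 5 left out, and ranged from -0.13 to 0.81 with a library left out. The Il17f slope over all cells reached -0.0006 without the control library of day 7, within a range up to 0.54.

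With the highest 5% of doublet scores removed, the day 3 ratio was 2.33 for Il17a and 52.1 for Il17f over all cells and 79.4 for Il17f in gamma-delta T-like cells. With a gate on Trdc and Trac, the Il17a ratio in gamma-delta T-like cells was 0.229 on day 1 and 0.822 on day 7, and the day 1 ratios of Il17f and Il23r were 0.185 and 0.301. At a clustering resolution of 1.6 the Il23a ratio in neutrophil-like cells was 1.57 on day 3 and 4.05 on day 7. Thinned to 500 UMIs, the shares were 20.4% for Il17a, 17.2% for Il17f and 6.55% for Il23r in gamma-delta T-like cells and 7.21% for Il23a in neutrophil-like cells. Of 460 values that answer a comparison, the other 430 moved by no more than 1.5 times for a count and stayed within the counting interval for a ratio or share. A median level of a class counted as unmoved if it shifted by less than the SD between libraries. Under that rule the Il23a median in neutrophil-like cells counted as unmoved while running from 161 to 263 with a library left out. Without the replicate block, that is with day not in the model, no call on the 5 genes changed, and the Il23a difference over all cells was 0.47. When all genes were allowed in clustering, other T-like cells fell to 3 to 168 a library.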
